A study of Mus musculus with 2 samples.

Results

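Complement is a set of secreted proteins that tag cells and debris for uptake and can lyse membranes, and 9 of its genes were followed here in the mouse cochlea, out of 27998 genes counted. They were chosen by symbol: C1qa, C1qb, C1qc, C1ra, C1s1, C2, C3, C4b and Serping1. The data are single-cell RNA sequencing of cochleae from wild type C57BL/6 mice at 20 days of age, with 5 to 8 mice given in the labels, in 1 group of 2 libraries and no treatment. Nothing in the labels says that the libraries came from separate animals. The p-values rest on how class differences vary between these libraries, with the overall library difference taken out, and this spread may be technical.

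In the classical pathway, C1q, built from the chains of C1qa, C1qb and C1qc, recognises a target and carries the proteases C1r and C1s. C1s cleaves C4 and C2 to form the enzyme that cleaves C3, the component on which all routes of complement meet, and the C1 inhibitor encoded by Serping1 blocks C1r and C1s. Circulating components come largely from the liver, while C1q is known as a product of macrophages and microglia in many tissues, and fibroblasts are a known local source of C1r, C1s and C1 inhibitor.

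The genes lie in several places (mm10 build, GENCODE M21 annotation). C1qb, C1qc and C1qa stand within 18675 bp on the minus strand, at chr4:136880129-136886187, chr4:136889804-136893065 and chr4:136895917-136898803. C1ra (chr6:124512405-124523443, plus strand) and C1s1 (chr6:124530345-124542359, minus strand) face each other across a gap of 6901 bp. C4b (chr17:34728380-34743882), C2 (chr17:34862604-34898265) and C3 (chr17:57203970-57228136) are on the minus strand, as is Serping1 (chr2:84765387-84775444). C2 overlaps Zbtb12 on the opposite strand, which had 181 UMIs (unique molecular identifiers, each marking 1 captured transcript). It also overlaps Gm20547, a protein-coding gene on its own strand, over 19439 bp, which had 0 UMIs. The sources used here do not say whether counting used strand, so the C2 count is uncertain where it meets either gene. The paralogs C1rb (1 and 1 UMIs in libraries 1 and 2) and C1s2 (2 and 5) were nearly unseen beside C1ra (230 and 109) and C1s1 (500 and 352), and C4a was not analysed here, so that the C4b count may hold reads of a near-identical copy.

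Promoters are shown for the neighbouring C1q pair and the neighbouring protease pair, since each pair shared its cell classes in the results below. RefSeq promoters (GRCm38.p6, 250 bases before to 50 after the start) were matched for 5 of the 9 genes. They were searched on both strands for the PU-box GAGGAA, bound by a myeloid factor, for the STAT letters TTCNNNGAA and for an interferon response motif (GAAA, a gap of 2 bases, GAAA), with matches in capitals. C1qb is at chr4:136886151-136886450 (minus), C1qc at chr4:136892865-136893164 (minus), C1ra at chr6:124512371-124512670 (plus) and C1s1 at chr6:124542310-124542609 (minus).
C1qb: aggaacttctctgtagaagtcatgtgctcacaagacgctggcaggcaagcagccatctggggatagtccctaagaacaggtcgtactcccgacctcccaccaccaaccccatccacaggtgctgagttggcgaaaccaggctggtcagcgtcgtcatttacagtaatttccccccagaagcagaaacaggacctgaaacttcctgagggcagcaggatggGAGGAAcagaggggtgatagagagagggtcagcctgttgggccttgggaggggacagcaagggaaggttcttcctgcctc
C1qc: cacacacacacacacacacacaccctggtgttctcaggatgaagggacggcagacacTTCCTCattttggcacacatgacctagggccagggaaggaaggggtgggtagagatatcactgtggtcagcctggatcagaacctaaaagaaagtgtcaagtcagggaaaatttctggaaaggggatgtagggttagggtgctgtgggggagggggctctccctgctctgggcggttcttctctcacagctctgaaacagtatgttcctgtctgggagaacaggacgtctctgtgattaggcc
C1ra: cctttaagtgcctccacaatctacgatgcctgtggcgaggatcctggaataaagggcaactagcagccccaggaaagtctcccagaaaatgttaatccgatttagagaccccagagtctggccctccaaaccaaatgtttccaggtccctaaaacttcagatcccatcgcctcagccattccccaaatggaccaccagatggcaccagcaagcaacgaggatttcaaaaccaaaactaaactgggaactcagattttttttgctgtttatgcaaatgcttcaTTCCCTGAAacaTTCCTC
C1s1: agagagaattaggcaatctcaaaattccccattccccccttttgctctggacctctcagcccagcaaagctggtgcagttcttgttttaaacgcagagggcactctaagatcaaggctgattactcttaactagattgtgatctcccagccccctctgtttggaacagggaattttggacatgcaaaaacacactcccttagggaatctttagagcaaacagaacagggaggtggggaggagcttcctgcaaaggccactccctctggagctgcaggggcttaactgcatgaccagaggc
C1qb held a PU-box at base -30 from its start, C1qc one on the other strand at -193, and C1ra one on the other strand at 44 beside a STAT match at 32. The C1s1 window held none of the 3 motifs. Of 32851 promoters of the same length, 28.3% held the PU-box, 8.30% the STAT letters and 3.44% the interferon response motif, so that such matches are common and describe the letters only.

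Library 1 held 1610 barcodes with 20212520 UMIs and library 2 held 720 with 7094752, and 1329 and 640 cells were kept. Haemoglobin genes took 25.4% and 12.6% of the UMIs, and 2 barcodes occurred in both libraries. Cells were grouped into 19 classes from genes that included none of the 9, and the 10 classes that had 10 or more cells from both libraries were compared in 1 edgeR fit. Macrophage-like cells (22 and 16 cells) carried 10 of 10 macrophage markers, connective tissue fibroblast-like cells (150 and 165) 4 of 9 fibroblast markers with Dcn and Ccl11 leading, cochlear fibrocyte-like cells (53 and 36) 3 of 7 fibrocyte markers, and erythroid cell-like cells (410 and 39) 5 of 9 erythroid markers. Clusters that met no naming rule are called by their genes. The Mgp and Col2a1 cluster (71 and 17 cells) carried 5 of 9 osteoblast and 3 of 8 pericyte markers. The others are the Tnc and Notum (172 and 21 cells), Lox and Coch (60 and 97) and Tnfaip6 and Sptssb (29 and 104) clusters. The Tnc and Notum cluster carried 3 of 7 fibrocyte and 2 of 4 stria basal markers. The Lox and Coch cluster carried 2 of 7 fibrocyte and 3 of 9 endothelial markers. Fibrocyte-like cells here are the class with Otos, Car3 and Kcnk2 and may not hold all fibrocytes. Non-sensory epithelium-like clusters are told apart as the Ucma (34 and 22 cells) and Vmo1 (17 and 28) clusters. The cells were classed by other genes of the same cells, so the tests below describe how the classes differ and are not independent of the grouping.

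Levels below are CPM, the UMIs of a gene scaled to all UMIs of its class in that library. They compare 1 gene between classes and not genes with each other. Haemoglobin genes lead the erythroid class and count in its UMIs, so CPM of other genes there compare less directly. Log2 fold changes set a class against the mean of the other 9 fitted classes. They come with SE and with p adjusted by Benjamini-Hochberg over 4574 genes kept out of the clustering. Outside the macrophage-like class this mean includes macrophage-like cells, so a lower call of a C1q chain need not set a class below the remaining classes. Of the 9 genes, 8 passed the filter on low counts and C3 did not. A fit widened to 15 classes, those with 2 or more cells from each library, was added after the data were seen, and there all 9 genes passed among 5324 tested.

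**Figure D1:**
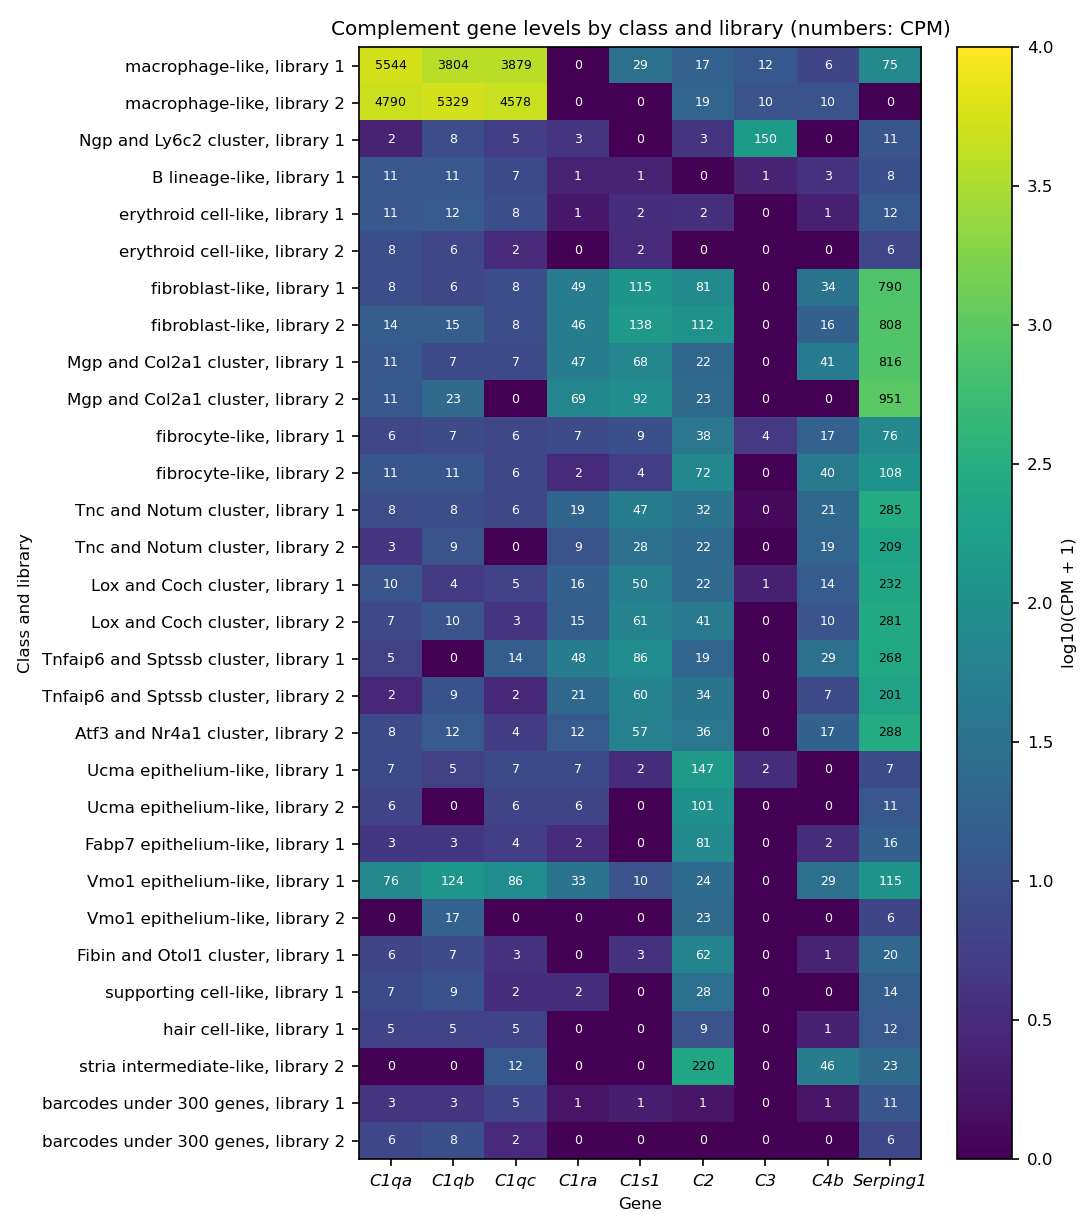
Level of each of the 9 genes (columns) in each class and library with 10 or more cells (rows), with barcodes under 300 genes at the bottom. Colour is log10(CPM + 1) and the printed number is CPM. The C1q columns are bright in the 2 macrophage-like rows, Serping1 in the fibroblast-like and the Mgp and Col2a1 rows, and C3 in the Ngp and Ly6c2 row.

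The 3 C1q chains lay mostly in macrophage-like cells. C1qa stood at 5544 and 4790 CPM there in libraries 1 and 2, C1qb at 3804 and 5329 CPM, and C1qc at 3879 and 4578 CPM. The 16 fitted sums outside the macrophage-like and Vmo1 classes lay at or below 22.9 CPM for each chain. Macrophage-like cells held 85.2% and 91.2% of all C1qa UMIs in kept cells, 79.2% and 88.5% of C1qb and 83.3% and 94.8% of C1qc. Of the 8 genes tested, 3 were higher in macrophage-like cells, the C1q chains, and 0 were lower, where 11.6% and 5.4% of all genes tested were. The log2 fold change was 8.96 ± 0.22 for C1qa (adjusted p = 3.6e-39, edgeR), 8.59 ± 0.25 for C1qb (8.7e-24) and 9.05 ± 0.24 for C1qc (1.7e-26).

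Single cells showed the same split. In library 1, 19 of 22 macrophage-like cells held UMIs of all 3 chains and 10 or more C1q UMIs, and in library 2 all 16 of 16 did. Among those cells C1q took a median of 2.15% of the cell's UMIs in library 1 (0.482 to 2.49%) and 1.45% in library 2 (0.376 to 2.56%). The other 3 cells of library 1 held 0, 1 and 1 C1q UMIs and 2, 2 and 3 of the macrophage markers, against a median of 9.5 in the library's macrophage-like cells. These 3 cells held 7011, 15897 and 26555 of the class's 172979 UMIs in library 1, which lowers its C1q CPM there. The last of them also held 5 monocyte markers. C1qa made up 41.9% of the C1q UMIs of macrophage-like cells in library 1 (exact binomial 95% interval 39.9 to 44.0) and 32.6% in library 2 (30.2 to 35.0), with intervals that cover counting error of UMIs only and leave out the spread between cells.

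**Figure D2:**
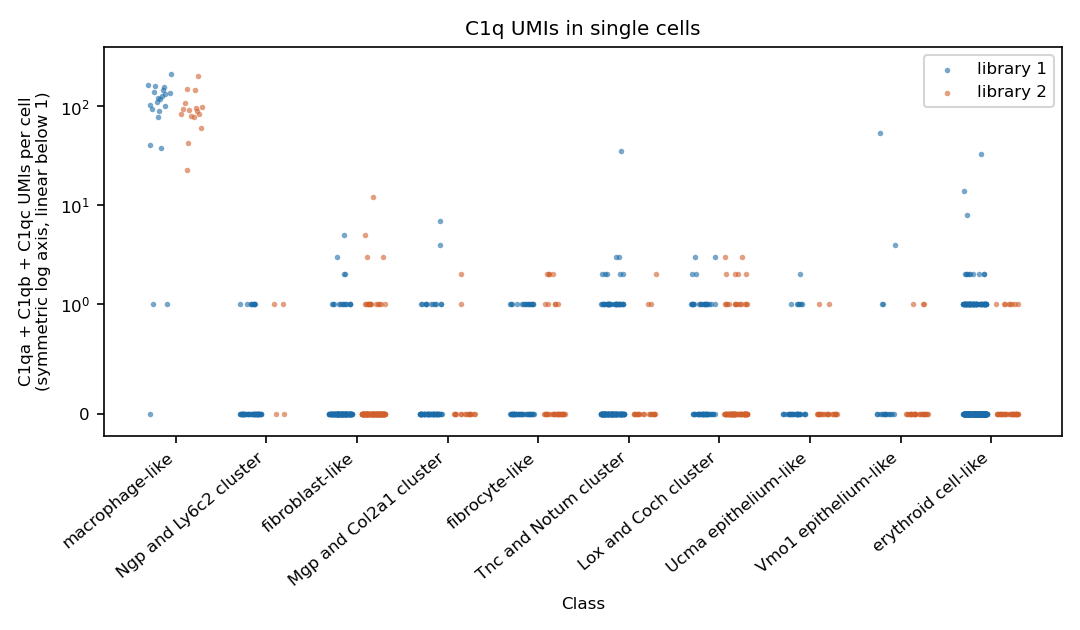
Summed C1qa, C1qb and C1qc UMIs of each cell (points, symmetric log axis) by class, blue for library 1 and orange for library 2. All but 3 macrophage-like cells lie between 23 and 215 UMIs, while most cells of the other classes hold 0 or 1.

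Outside the macrophage-like class, 6 cells held 10 or more C1q UMIs. The highest, with 54 C1q UMIs, was a Vmo1 epithelium-like cell of library 1 with 58205 UMIs and 9 macrophage markers detected. A Tnc and Notum cell with 35 C1q UMIs and an erythroid cell-like cell with 33 had 7 markers each. The others, with 14, 12 and 11 C1q UMIs, were an erythroid cell-like, a fibroblast-like and a B lineage-like cell with 1, 2 and 0 markers. C1qb was 124 and 17.4 CPM in that class and was called higher (1.77 ± 0.49, adjusted p = 0.00823, edgeR), the 1 of 8 genes higher there beside C1s1 as the 1 lower (13.3% and 7.26% of all genes). Without the 3 cells of the class that had 2 or more macrophage markers, C1qb stood at 14.3 and 17.4 CPM and its fold change was -0.34 with no call. In erythroid cell-like cells C1qa (11.0 and 8.00 CPM; 1.43 ± 0.41, adjusted p = 0.00354, edgeR) and C1qb (12.5 and 6.00 CPM; 1.60 ± 0.44, 0.00373) were called higher, 2 of 8 beside 2 lower, where 25.3% and 18.9% of all genes were. Of the 152 C1q UMIs of the class in library 1, 33 and 14 lay in the 2 cells above. The unscaled C1qa and C1qb levels lay within those of other classes, the TMM scaling factors of the erythroid sums were 0.243 and 0.179, and barcodes under 300 genes held 5 and 3 C1qa and 5 and 4 C1qb UMIs. With cells gated by markers alone the erythroid fold changes were 0.15 and -0.10 with no call. That fit held only the erythroid, macrophage, fibroblast, fibrocyte and non-sensory epithelium gates. Its reference mean therefore differs from that of the 10 fitted classes and gives macrophages more weight, so the 2 fits are not like for like. In the fit of 15 classes all 3 chains were higher in both classes, with C1ra also higher in the Vmo1 class, 4 and 3 of 9 genes where 11.9% and 23.2% of all genes were. The part of free RNA and of doublets in these few UMIs was not tested.

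C1r and C1s, the proteases that C1q carries, lay in other cells. By CPM, C1s1 was highest in fibroblast-like cells, at 115 and 138, above the next class in both libraries. The Mgp and Col2a1 cluster (67.7 and 91.6 CPM), the Tnfaip6 and Sptssb cluster (86.2 and 59.6) and the Lox and Coch cluster (49.6 and 60.8) followed, each within the spread of its neighbour. Macrophage-like cells held 5 C1s1 UMIs in 2 cells of library 1 and 0 in library 2. Of all C1s1 UMIs in kept cells, fibroblast-like cells held 25.9% and 38.2%, and the Tnc and Notum cluster 36.7% and 2.56%. A cluster led by Atf3 and Fam71a (1 and 54 cells), which was not fitted, held 0% and 23.4%. Such shares follow the number and depth of cells as well as the level. C1s1 was higher in fibroblast-like cells by 2.87 ± 0.24 (adjusted p = 1.56e-15, edgeR) and lower in fibrocyte-like cells (8.58 and 4.24 CPM; -1.88 ± 0.57, 0.00864). With cells gated by markers alone the first fell short of the threshold (2.42, adjusted p = 0.0532, edgeR) and the second turned round (1.86). These gates held other cells, 10 and 22 for fibroblasts and 114 and 102 for fibrocytes. The unnamed clusters were absent from the reference mean, so these are not the same contrasts.

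C1ra stood at 47.1 and 68.7 CPM in the Mgp and Col2a1 cluster, 48.9 and 46.2 CPM in fibroblast-like cells and 47.9 and 20.5 CPM in the Tnfaip6 and Sptssb cluster. These 3 classes overlap in their library values. C1ra was higher in all 3, by 2.51 ± 0.45 (adjusted p = 2.33e-05, edgeR), 2.62 ± 0.36 (2.48e-08) and 2.01 ± 0.56 (0.0119). The call in the Tnfaip6 and Sptssb cluster was lost with doublets kept (1.41) and with the stricter filter on cells (1.67). Of all C1ra UMIs in kept cells, fibroblast-like cells held 24.0% and 42.5%, and the Tnc and Notum cluster 31.4% and 2.83%. None of the 38 macrophage-like cells held a C1ra UMI, a level at least 4.40-fold lower than in fibroblast-like cells with the same kind of floor, 3 counts summed over the libraries. C1ra and C1s1 were found together in 29 and 21 fibroblast-like cells. Each of these also held Serping1, as did nearly all fibroblast-like cells. The 0 and 0 macrophage-like cells with both follow from the absence of C1ra UMIs there.

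Serping1, the C1 inhibitor, had its highest levels in the same classes as the proteases. It reached 816 and 951 CPM in the Mgp and Col2a1 cluster and 790 and 808 CPM in fibroblast-like cells, and these 2 classes lay above every other fitted class in both libraries. Of all Serping1 UMIs in kept cells, fibroblast-like cells held 26.6% and 41.3%, and the Mgp and Col2a1 cluster 21.2% and 4.36%. The Tnc and Notum cluster held 32.9% and 3.46%, and the Atf3 and Fam71a cluster 0.0896% and 21.9%. Serping1 was seen in 148 of 150 and 154 of 165 fibroblast-like cells. At 1000 UMIs per cell outside haemoglobin it was seen in 56.0% and 54.5% of fibroblast-like cells, against 7.22% and 4.17% of erythroid cell-like cells, of which 133 and 15 were too shallow to thin. The fold change was 2.98 ± 0.32 in the Mgp and Col2a1 cluster (adjusted p = 2.59e-06, edgeR) and 2.99 ± 0.30 in fibroblast-like cells (3.95e-07). The Tnc and Notum (285 and 209 CPM) and Lox and Coch (232 and 281 CPM) clusters stood lower yet above the mean of the classes (1.17 ± 0.35 and 1.22 ± 0.34, adjusted p = 0.0236 and 0.0147, edgeR), calls that were lost with DESeq2 (1.17 and 1.25) and without the erythroid class (1.00 and 1.04). Serping1 was low in the Ucma epithelium-like class, with 7.0 and 11.2 CPM (-4.38 ± 0.76, adjusted p = 2.33e-04, edgeR). It was 11.7 and 6.00 CPM in erythroid cell-like cells and 10.7 and 6.35 CPM in barcodes under 300 genes. These CPM overlap but are not scaled by TMM. The TMM factors were 0.243 and 0.179 for the erythroid sums and 1.18 and 1.19 for the Ucma sums. In the fit the erythroid value was -1.47 ± 0.53 (adjusted p = 0.0323, edgeR).

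**Figure D3:**
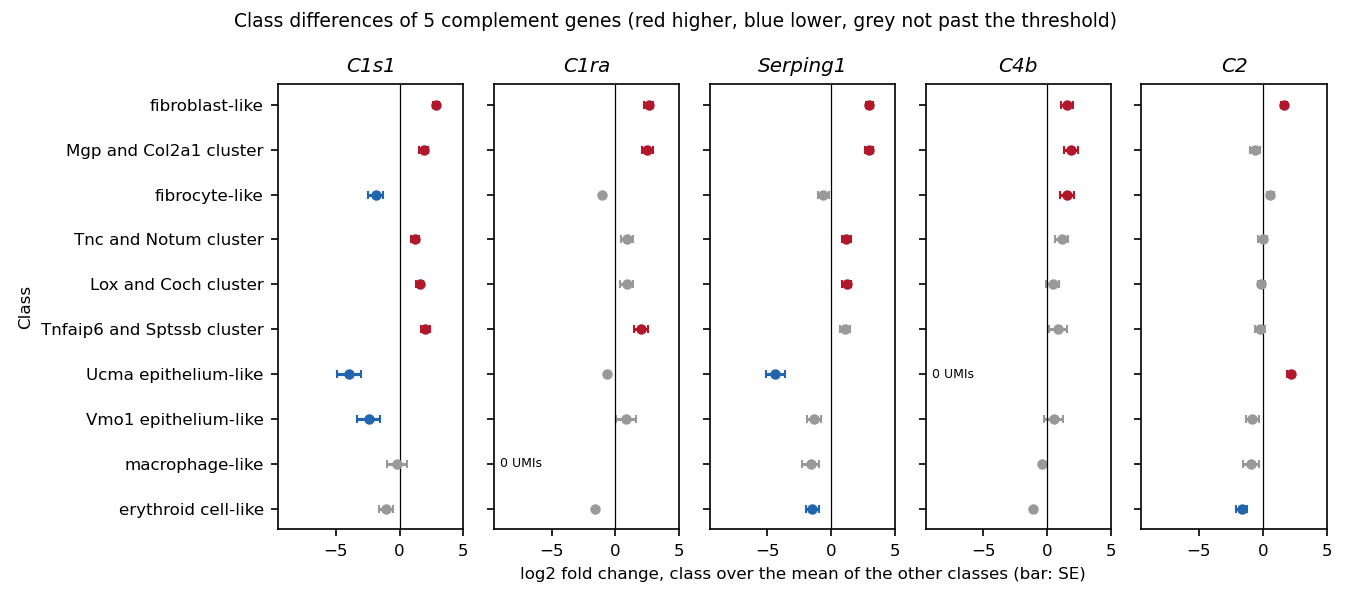
Log2 fold change of 5 genes (panels) in each fitted class (rows) over the mean of the other classes, with SE bars where the SE is at most 3, red for higher, blue for lower and grey for no call. A class with 0 UMIs of the gene in both libraries is marked in place of a point. C1s1, C1ra and Serping1 lie to the right in fibroblast-like cells and the Mgp and Col2a1 cluster, and C2 to the right in fibroblast-like and Ucma epithelium-like cells.

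Among the fitted classes fibroblast-like cells held the broadest set, with 5 of 8 genes higher (C1ra, C1s1, Serping1, C4b and C2) where 13.5% of all genes were, and 0 lower (3%). The Mgp and Col2a1 cluster had 4 of 8 higher (8.85%), without C2, and 0 lower (0.918%). In the Tnfaip6 and Sptssb cluster 2 were higher (C1ra and C1s1, 7.74%) and C1qa was lower (1.16%). The Tnc and Notum cluster had 2 higher (C1s1 and Serping1, 16.8%) and 2 lower (4.61%), and the Lox and Coch cluster the same 2 higher (16.5%) and 3 lower (4.37%), all of the lower ones C1q chains at a few CPM. In the fit of 15 classes none of these lower calls held in the 3 clusters (1.2%, 3.57% and 3.27% of all genes were lower). There the Tnfaip6 and Sptssb cluster had 3 of 9 genes higher (12.4%), with Serping1 added, and the Tnc and Notum and the Lox and Coch clusters 4 each (21.2% and 21.9%), with C1ra and C4b added. Without library 1, values were 4.50 for C1s1 in fibroblast-like cells and 4.10 for C1ra and 4.15 for Serping1 in the Mgp and Col2a1 cluster. They are differences of log2 CPM scaled by TMM, with a small added count and no test. In library 2 each of these 3 genes had 0 UMIs in macrophage-like cells, so the sizes depend on that count.

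C4b, the substrate of C1s, was low and spread over several classes. It stood at 17.2 and 40.3 CPM in fibrocyte-like cells (14 and 19 UMIs), 33.8 and 16.4 CPM in fibroblast-like cells and 41.3 and 0 CPM in the Mgp and Col2a1 cluster. These library values overlap, and the order of the classes is not fixed by them. All 3 were called higher, by 1.55 ± 0.55 (adjusted p = 0.0332, edgeR), 1.57 ± 0.49 (0.0208) and 1.88 ± 0.55 (0.0224). The fibrocyte-like call did not hold without the replicate block (1.5, adjusted p = 0.0819, edgeR), and DESeq2 left none of the 3 (1.69, 1.29 and 1.27). In fits of 1 library, the fibrocyte-like value was 4.04 without library 1 and 0.62 without library 2, and the Mgp and Col2a1 value was -3.78 without library 1. In library 2 the Mgp and Col2a1, Vmo1, Ucma and erythroid cell-like classes had 0 C4b UMIs, so the values without library 1 depend on the small count the fit adds. Fibrocyte-like cells had 1 of 8 genes higher, C4b, and 2 lower, C1qa and C1s1, where 16.8% and 7.54% of all genes were. C1qa there stood at 6.13 and 10.6 CPM, among the values of the other classes outside macrophage-like cells. Against fibroblast-like cells it had no call (-0.64 ± 0.67). Of the 36 fibrocyte-like cells of library 2, 9 held more stria marginal than fibrocyte marker UMIs, and these had 0 C4b UMIs.

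C2, the other substrate of C1s, had its highest level among the fitted classes in an epithelium-like one. It stood at 147 and 100.7 CPM in the Ucma epithelium-like class, seen in 27 of 34 and 8 of 22 cells, and at 80.9 and 112 CPM in fibroblast-like cells, with library values that overlap. C2 was higher in both (2.17 ± 0.27, adjusted p = 1.33e-09, edgeR, and 1.65 ± 0.22, 1.29e-08). In the Ucma class it was the 1 of 8 genes higher (13.3% of all genes), while Serping1, C1s1, C4b and C1qb were lower, 4 of 8 (8.66%), and C4b had 0 UMIs there. Of these lower calls Serping1 alone held in the fit of 15 classes (-3.04 ± 0.64, adjusted p = 3.15e-05, edgeR), where 2.14% of all genes were lower. Among smaller classes C2 reached 167 and 220 CPM in stria intermediate-like cells, from 2 and 19 UMIs in 2 and 19 cells, and 81.0 and 122 CPM in the Fabp7 epithelium-like cluster (43 and 6 cells). In the fit of 15 classes C2 was higher in both (2.30 ± 0.48 and 1.61 ± 0.29, adjusted p = 7.06e-05 and 4.91e-07, edgeR), where 3.51% and 15% of all genes were, C4b being the other gene higher in the stria class. Blood lineages held little C2, with 2.50 and 0 CPM in erythroid cell-like cells and 0 UMIs in 71 B lineage-like cells of library 1.

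C3, the central component, was found in neither fibroblast-like cells nor the Mgp and Col2a1 cluster, where both libraries had 0 UMIs. In library 1, 98 of its 108 UMIs lay in the Ngp and Ly6c2 cluster (58 cells), at 150 CPM (exact Poisson 95% interval 122 to 183), and in library 2, 2 of 3 UMIs lay in the 4 cells of that cluster. The cluster carried 10 of 10 neutrophil lineage and 6 of 6 monocyte markers. C3 was seen in 34 of its 58 cells in library 1, with at most 11 UMIs in a cell. With a floor of 3 counts summed over the libraries, fibroblast-like cells were at least 102.9-fold lower. Macrophage-like cells held 2 and 1 C3 UMIs (11.6 and 9.62 CPM). C3 passed the filter on low counts only in the fit of 15 classes, which added this cluster. In that fit C3 had a log2 fold change of 8.31 ± 0.49 in the cluster. It was the 1 gene of the set called higher there, where 15.9% of all genes were. Since C3 could be tested only with the cluster where it was high, this call adds no support to the counts above. The same fit called C3 higher in macrophage-like cells (4.45 ± 1.20, adjusted p = 0.00226, edgeR), where it made 4 of 9 genes with the C1q chains, and against fibroblast-like cells (adjusted p = 0.00751), from the 3 UMIs above, and 10.9% and 9.28% of all genes were higher in these comparisons. At a finer clustering of all cells, C3 stood in library 1 at 184 CPM (132 to 250) in 24 neutrophil lineage-like cells, all from this cluster, and at 102 CPM (77.8 to 132) in 48 monocyte-like cells, 34 of them from it. These values rest almost wholly on library 1.

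**Figure D4:**
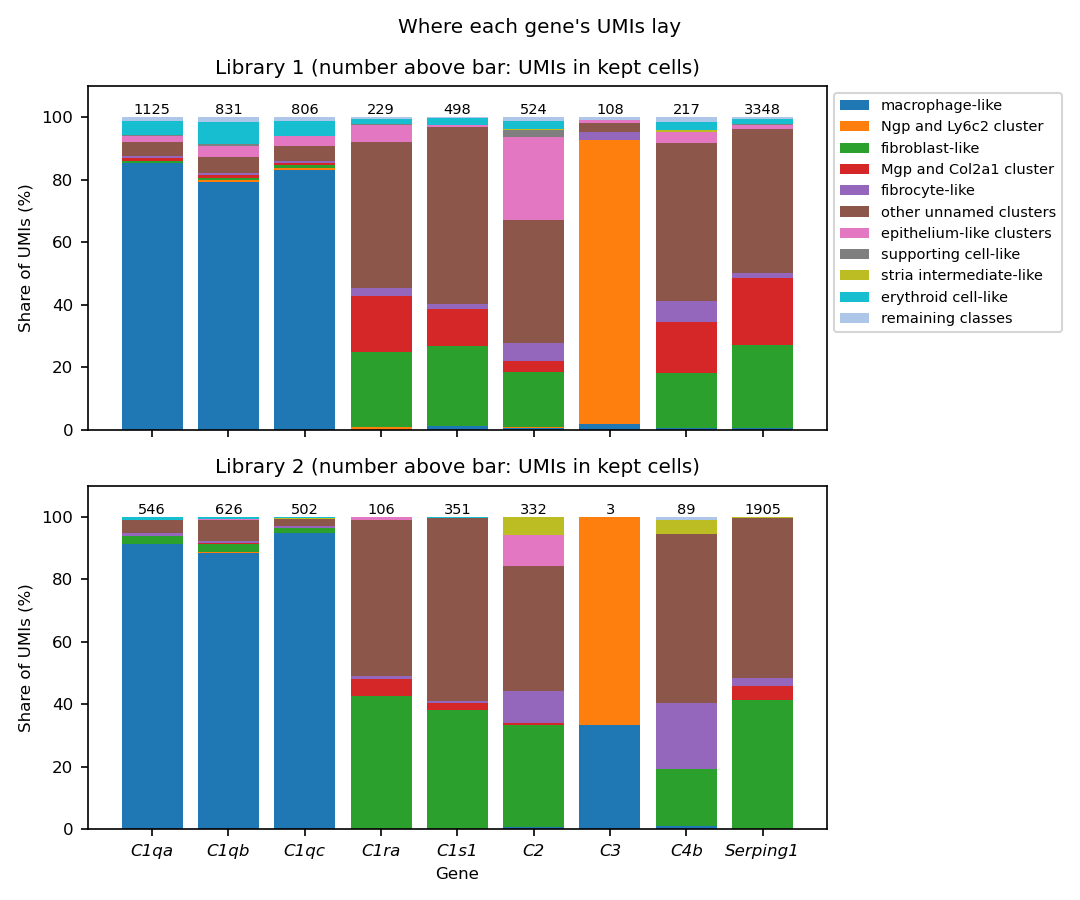
Share of each gene's UMIs in kept cells (stacked, percent) by class for library 1 (top) and library 2 (bottom), with the gene's UMIs above each bar. Macrophage-like cells take most of the C1q bars, the Ngp and Ly6c2 cluster most of C3, and several classes share the rest, with a C3 bar of 3 UMIs in library 2.

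Set directly against fibroblast-like cells, macrophage-like cells were higher in 3 of 8 genes and lower in 4, where 10.3% and 10% of all genes were. C1qa, C1qb and C1qc were higher by 8.86 ± 0.51, 8.74 ± 0.57 and 9.10 ± 0.56 (adjusted p = 3.7e-21, 9.92e-14 and 2.97e-15, edgeR). Serping1 was lower (-4.15 ± 0.66, 1.16e-04), as were C1s1 (-2.78 ± 0.57, 1.02e-04), C2 (-2.33 ± 0.59, 0.00188) and C1ra. Fibrocyte-like cells were lower than fibroblast-like cells in 4 of 8 genes and higher in 0 (13.1% and 12.1% of all genes), by -3.24 ± 0.51 for Serping1, -3.28 ± 0.53 for C1ra, -4.27 ± 0.43 for C1s1 and -0.97 ± 0.31 for C2 (adjusted p = 1.05e-04, 1.32e-06, 1.67e-12 and 0.0128, edgeR). With cells gated by markers alone, Serping1, C1s1 and C2 of macrophage-like cells were -3.47, -2.09 and -1.52. Those of fibrocyte-like cells were -1.39, -0.44 and -0.79. All kept their sign without a call, and the fibroblast gate held only 10 and 22 cells.

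Of 45 other complement genes listed, 14 passed the filter on low counts and could be tested. In macrophage-like cells 8 were higher and 1 was lower at the same threshold (edgeR), where 11.6% and 5.4% of all genes were. Genes such as C3ar1 and Itgam were higher in no other fitted class and may have passed the filter through the macrophage-like sums. The 8 of 14 is therefore no test of the set. The receptors of the split products, C3ar1 (249 and 375 CPM; 8.86 ± 0.48) and C5ar1 (145 and 375 CPM; 8.94 ± 0.55), and the integrin chains that bind cleaved C3, Itgam (8.17 ± 0.83) and Itgb2 (7.89 ± 0.73), were among the higher ones. So were Fcna (9.52 ± 0.63), a lectin pathway recognition protein, Cfp (6.34 ± 0.52), which stabilises the alternative pathway enzyme, and Cd93 (6.63 ± 1.0). Clu, an inhibitor of the membrane attack complex, was lower (-3.23 ± 0.41). Clu was higher in fibrocyte-like cells (2001 and 3370 CPM; 1.15 ± 0.26) and in Ucma epithelium-like cells (1.21 ± 0.26). The Ucma class was also higher for Cd59a (3.14 ± 0.47) and Cd59b (2.46 ± 0.68), membrane blockers of the same complex, and for Cfi (5.21 ± 0.84), the protease that inactivates C3b. Cd59a and Cd59b were higher too in the Vmo1 class (2.96 ± 0.54 and 3.17 ± 0.65) and in erythroid cell-like cells (3.59 ± 0.41 and 2.54 ± 0.63), and Clu in the Vmo1 class (0.86 ± 0.27). Erythroid cell-like cells had 7 of the 14 higher and 1 lower, where 25.3% and 18.9% of all genes were, with the low scaling factors given above. Vtn, which also binds the terminal complex, was higher in fibroblast-like (38.2 and 27.7 CPM; 5.48 ± 0.58), Mgp and Col2a1 (4.47 ± 0.78) and fibrocyte-like cells (2.59 ± 0.93). In the Ngp and Ly6c2 cluster, which held the C3 UMIs, the lectin gene Fcnb had 292 and 7 UMIs and Cfp 63 and 3. Hc, which encodes C5, had 0 UMIs in both libraries, as had C7, C8a and C8b.

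Over the 20 sums of the fitted classes, the levels of 6650 genes were set beside each gene by Pearson correlation of log2(CPM + 10), sums that share libraries and depth. Nearest to C1qa were Ifi204 (0.99), Ltc4s (0.99) and Fam105a (0.99), to C1qb Ifi203 (0.99), Fcer1g (0.99) and Adap2 (0.98), and to C1qc Ifi204 (0.99), Selplg (0.99) and Ifi203 (0.99). C1ra was nearest to Cpxm1 (0.93), Nid1 (0.87) and Prelp (0.87), C1s1 to Efemp1 (0.96), Itih2 (0.96) and Lrrn3 (0.95), and Serping1 to Col5a2 (0.96), Fhl2 (0.96) and St6galnac6 (0.96). C2 was nearest to Galk1 (0.87), 9030624J02Rik (0.86) and Mtus2 (0.85), and C4b to Flna (0.81), Hacd1 (0.80) and Tfpi (0.80). For C3, whose main cluster was not among the sums, Evi2a (0.96), F13a1 (0.96) and Pik3cg (0.95) came nearest, values that rest on at most 3 C3 UMIs in a sum.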

How the data were processed

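Single-cell RNA sequencing of trypsin-dissociated cochlea was analysed in 2 libraries of 1 group. The deposited values were raw UMI counts, which the authors produced in Cell Ranger 2.1.0 against mm10, per the submitters' processing notes. The sources used here do not say how barcodes were selected. The 9 genes, the marker lists and the other complement lists were chosen with earlier results of these data known.

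Barcodes with under 300 genes (275 and 60) or over 20% mitochondrial UMIs (4 and 16) were removed, as were 2 and 4 doublets marked by Scrublet at an expected rate of 2%, which left 1969 cells (median 10601 and 6116 UMIs). No correction for free RNA was made. Clustering (scanpy 1.11.5, 30 components, 15 neighbours, Leiden resolution 1.0, seed 0, Python 3.11.15) used 2020 genes, while 13960 genes, the complement genes among them, were held out. A cluster was named from at least 3 markers and 40% of a list (log2 fold of 1 or more on CPM plus 10, in 10% of cells), with a margin of 20 points over the next list or under 3 markers in the next, and a leading gene in 25% of cells; the margin was set after a first clustering was seen. Clusters of 1 name were merged, which joined 4 as erythroid cell-like.

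Counts were summed per library and class, and 10 classes (20 sums) were fitted with edgeR 4.0.16 in R 4.3.3. The fit used TMM factors, the 9414 genes left by filterByExpr (minimum count 10), robust quasi-likelihood tests, and a replicate block for library, because all classes of a library share a suspension. The 4574 held-out genes were adjusted by Benjamini-Hochberg within each contrast at a threshold of 0.05. Each SE is the fold change over the root of its F statistic. The fit was tested on simulated data. Intervals and floors (3 counts) cover counting error only. All 9 genes were named, with every other complement gene called in the class highest for one of them (at most 6 per list), and the 3 most alike genes for each, except 1 gene that is not reported here. Alternatives were DESeq2 1.42.0 and its size factors, other filters, clusterings and class sets, and each library left out.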

Additional observations from a re-analysis of the deposited data

Results flagged for a closer look

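Barcodes removed for over 20% mitochondrial UMIs (4 in library 1 and 16 in library 2), which no comparison used, held 4 C1qc UMIs, above the limit that a count of 0 allows. The same barcodes held 4 C2 UMIs, above the same limit.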

How the results depend on the processing

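Over 49 called fold changes with 705 alternative values, 578 stayed the same, 78 kept only the direction, 41 moved in size and 8 turned round. Staying the same meant keeping direction and side of the threshold. For fits without 1 library, which have no p-value, it meant keeping direction with a shift below the SD of the 2 such values. That band widens as the 2 libraries disagree, so for these fits the label does not measure stability. Such values are among the 578. Another 30 could not be computed, most because gating cells by markers alone gives no unnamed clusters. With gating, where cells and reference mean differ from the fit of 10 classes, C1s1 in fibroblast-like cells was 2.42 (adjusted p = 0.0532, edgeR). Values there turned round for C1s1 in fibrocyte-like (1.86) and Serping1 (0.53) and C1qb (-0.10) in erythroid cell-like cells. C4b in fibrocyte-like cells lost its call with DESeq2 (1.69), without the erythroid class (1.46) and without the replicate block (1.5), and no other of the 8 leading values changed its call with the block. Without the block 20 gene and class pairs were called higher and 12 lower, against 23 and 15 with it; 8 were called lower without the erythroid class and, in the fit of 15 classes, 2 among the 10 classes and 8 among all 15, where C1s1 in fibrocyte-like cells was 0.34. C1qa in the Lox and Coch cluster was 0.027 at resolution 2.0. C1qb in the Vmo1 class was -0.34 without cells holding macrophage markers and -0.30 to 3.43 with either library left out, and C4b in the Mgp and Col2a1 cluster -3.78 to 2.1; these alternatives hold fewer cells or samples. With each library left out in turn, values ran from 8.99 to 9.65 for C1qa, 9.10 to 9.26 for C1qb and 8.55 to 11.06 for C1qc in macrophage-like cells, 2.30 to 4.10 for C1ra and 2.79 to 4.15 for Serping1 in the Mgp and Col2a1 cluster, 2.36 to 4.50 for C1s1 in fibroblast-like cells, 2.28 to 2.59 for C2 in the Ucma class and 0.62 to 4.04 for C4b in fibrocyte-like cells. Where a class had no UMIs of the gene in the library kept, such values depend on the small count the fit adds. The cause of the other changes was not tested. Depth limits C3, which rests on 108 and 3 UMIs, C4b, and every class with few cells in library 2.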
